A study of Mus musculus with 16 samples.

Results

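The regions described here are stretches of open chromatin that were called in fewer libraries after interleukin-1β (IL-1β) than at baseline in mouse bone marrow cells. From each of 16 peak lists the 37543 peaks with the highest −log10 p were kept, so that every library entered with the same number, and overlapping peaks were merged into 64328 regions on build mm10. A region counted as lost when at least 5 more of the 8 baseline libraries than of the 8 IL-1β libraries held a kept peak there. This held for 837 regions, or 1.30% of all merged regions, and 1239 regions (1.93%) met the same rule in the opposite direction and are called gained. The regions were chosen by their kept calls after IL-1β and at baseline, so all call counts and read counts in that contrast are descriptions and carry no test.

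The libraries are ATAC-seq, in which the transposase Tn5 cuts and tags accessible DNA, from nuclei of 50000 cells per replicate of male C57Bl/6 mice. Mature cells were removed from the marrow by their CD3, CD4, B220, Ter119 and Gr1 antigens, and the submitters call what remained haematopoietic stem cells. Marrow of 4 diabetic samples, from mice given streptozotocin, and of 4 control samples was divided into a portion cultured for 6 h with IL-1β at 10 ng/mL and a baseline portion lysed at once. The 4 groups are therefore diabetic IL-1β, diabetic baseline, control IL-1β and control baseline, with 4 libraries each. Streptozotocin itself and diabetes cannot be told apart, and neither can IL-1β and the 6 h in culture. A lineage-depleted fraction holds committed progenitors as well as stem cells. Peaks stood at the start of the progenitor genes Kit, Cd34, Runx1 and Hlf in 8 of 8 IL-1β and 8 of 8 baseline libraries, and at that of Gata2 in 6 IL-1β and 8 baseline libraries. The start of Procr, a marker of the most immature stem cells, had a peak in 0 IL-1β and 0 baseline libraries. The T cell gene Cd3e had one in 0 IL-1β and 0 baseline libraries, while Ly6g, a granulocyte gene of the depleted Gr1 class, had a peak in 5 IL-1β and 7 baseline libraries.

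Accessible chromatin marks promoters and distal elements where transcription factors displace nucleosomes. IL-1β signals through its receptor and the shared co-receptor encoded by Il1rap to NF-κB and MAP kinases, which act on AP-1 factors, and it drives haematopoietic progenitors towards myeloid output. Interferon regulatory factors (IRF) bind elements with GAAA repeats, and RFX factors bind X-box elements that are frequent at promoters of genes for the cilium. A cut-off on rank turns a graded loss of reads into a lost call, so the reads at each region are given beside its calls.

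Sequence was examined only in promoter windows, so what follows does not describe the lost regions elsewhere, which are most of them. RefSeq promoter windows (250 bases before to 50 after a start, GRCm38.p6, which has the coordinates of mm10) were overlapped by 47 lost regions (5.62%), against 4.36% of gained and 15.9% of all merged regions. The 47 regions touched 49 windows. These included windows of genes for the cilium and its base: Pifo, the BBSome subunit genes Ttc8 and Bbs1, Tctn2 (a transition zone protein), Cfap46, Cfap126, Maats1 and Lrrc23. That group was noticed only after the gene names had been read, and it was not tested. Windows of such genes were not counted for gained, like-breadth or all merged regions, so no share stands beside the group. The other windows included those of Myl6, Tfec, Vipr2, Bsn and Nupr1. The 8 windows below were picked by hand, after the values were seen. They come from the windows with RFX or IRF letters in the part that the lost region covered. Others that qualified, among them Maats1, Lrrc23, Adgb and Gm36333, are not printed. Capitals mark GTTGCC or its complement GGCAAC, the core of the RFX X-box, in the first 5, and GAAANNGAA or its complement, an IRF-type element, in Sidt1, Tgfbi and Cfap126. Cfap46 carries both. Sequences run 5′ to 3′ on the gene's strand.
Pifo (chr3:106001448-106001747, minus strand): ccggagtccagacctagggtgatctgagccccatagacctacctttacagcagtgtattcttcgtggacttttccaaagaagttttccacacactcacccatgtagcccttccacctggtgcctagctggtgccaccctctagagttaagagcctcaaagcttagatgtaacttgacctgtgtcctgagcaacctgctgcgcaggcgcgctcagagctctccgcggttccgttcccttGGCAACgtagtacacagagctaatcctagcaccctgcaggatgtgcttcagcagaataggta
Lrif1 (chr3:106684737-106685036, plus strand): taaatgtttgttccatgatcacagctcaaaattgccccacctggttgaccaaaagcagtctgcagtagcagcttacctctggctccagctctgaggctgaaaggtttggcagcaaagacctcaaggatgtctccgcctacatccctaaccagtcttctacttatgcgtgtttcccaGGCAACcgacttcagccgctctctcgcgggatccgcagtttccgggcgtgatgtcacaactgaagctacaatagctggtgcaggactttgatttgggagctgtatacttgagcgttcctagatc
Tctn2 (chr5:124598499-124598798, plus strand): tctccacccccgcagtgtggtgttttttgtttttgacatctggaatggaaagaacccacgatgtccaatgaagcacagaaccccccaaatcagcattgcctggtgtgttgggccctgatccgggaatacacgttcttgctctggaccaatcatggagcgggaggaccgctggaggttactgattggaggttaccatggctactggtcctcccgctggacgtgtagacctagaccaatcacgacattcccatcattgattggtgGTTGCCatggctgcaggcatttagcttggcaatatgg
Bbs1 (chr19:4906578-4906877, minus strand): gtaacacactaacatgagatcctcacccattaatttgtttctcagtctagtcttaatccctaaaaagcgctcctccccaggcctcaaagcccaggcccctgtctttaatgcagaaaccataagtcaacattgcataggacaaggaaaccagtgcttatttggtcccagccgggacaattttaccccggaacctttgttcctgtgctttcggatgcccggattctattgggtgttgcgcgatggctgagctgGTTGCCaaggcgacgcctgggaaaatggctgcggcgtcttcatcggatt
Cfap46 (chr7:139683766-139684065, minus strand): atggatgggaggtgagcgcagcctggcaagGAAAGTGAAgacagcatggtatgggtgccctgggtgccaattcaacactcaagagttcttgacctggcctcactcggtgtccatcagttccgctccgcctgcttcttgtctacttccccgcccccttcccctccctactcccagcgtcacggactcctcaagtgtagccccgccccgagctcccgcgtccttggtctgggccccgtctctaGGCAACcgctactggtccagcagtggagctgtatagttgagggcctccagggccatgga
Sidt1 (chr16:44332789-44333088, minus strand): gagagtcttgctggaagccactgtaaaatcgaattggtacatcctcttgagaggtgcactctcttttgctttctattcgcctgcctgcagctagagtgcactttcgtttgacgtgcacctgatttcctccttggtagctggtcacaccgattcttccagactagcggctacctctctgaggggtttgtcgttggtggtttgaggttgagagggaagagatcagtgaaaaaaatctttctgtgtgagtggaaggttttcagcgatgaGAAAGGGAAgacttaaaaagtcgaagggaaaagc
Tgfbi (chr13:56609336-56609635, plus strand): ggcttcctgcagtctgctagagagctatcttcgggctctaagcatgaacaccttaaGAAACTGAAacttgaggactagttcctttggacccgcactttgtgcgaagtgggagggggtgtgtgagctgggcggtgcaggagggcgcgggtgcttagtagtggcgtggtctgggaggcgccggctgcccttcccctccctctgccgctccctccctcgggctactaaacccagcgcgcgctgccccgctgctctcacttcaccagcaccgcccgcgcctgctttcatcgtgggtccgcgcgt
Cfap126 (chr1:171122795-171123094, plus strand): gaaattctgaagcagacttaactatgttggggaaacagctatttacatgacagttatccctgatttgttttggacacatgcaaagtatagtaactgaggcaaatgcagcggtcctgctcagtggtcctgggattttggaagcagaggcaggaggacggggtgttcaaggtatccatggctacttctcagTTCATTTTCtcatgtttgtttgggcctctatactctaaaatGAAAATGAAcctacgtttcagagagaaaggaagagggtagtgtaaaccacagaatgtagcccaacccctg

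The letters GTTGCC were found in 14 of the 49 windows (28.6%), against 5 of 67 windows overlapped by gained regions (7.46%), 11.9% of 783 windows overlapped by regions called in 5 to 11 libraries, the same breadth as the lost regions, and 12.7% of all 13213 windows overlapped by any merged region. In 12 of the 14 windows the letters lay inside the lost region. The IRF element was found in 12 of the 49 windows (24.5%), against 7.46% for gained regions, 9.96% at like breadth and 6.98% of all overlapped windows, and lay inside the lost region in 7 of those 12. The AP-1 element TGANTCA had the opposite distribution. It was present in 3 of the 49 windows (6.12%) and in 21 of 67 windows of gained regions (31.3%), with 8.05% at like breadth and 5.06% overall. NF-κB letters, GGANTTTCC, occurred in 0 windows of lost and 0 of gained regions. All searches covered both strands. The letters of NFI, TTGGCA, can share 4 bases with GGCAAC, and they were present in 20.4% of lost, 8.96% of gained and 13.3% of like-breadth windows. RUNX letters were present in 5 of the 49 windows (10.2%) and PU.1 letters in 4 (8.16%), against 6.90% and 4.21% at like breadth. Of 19 motifs searched, the RFX letters were added after the gene names were seen, and no share was tested. A match is a run of letters and does not show that a factor bound.

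**Figure D1:**
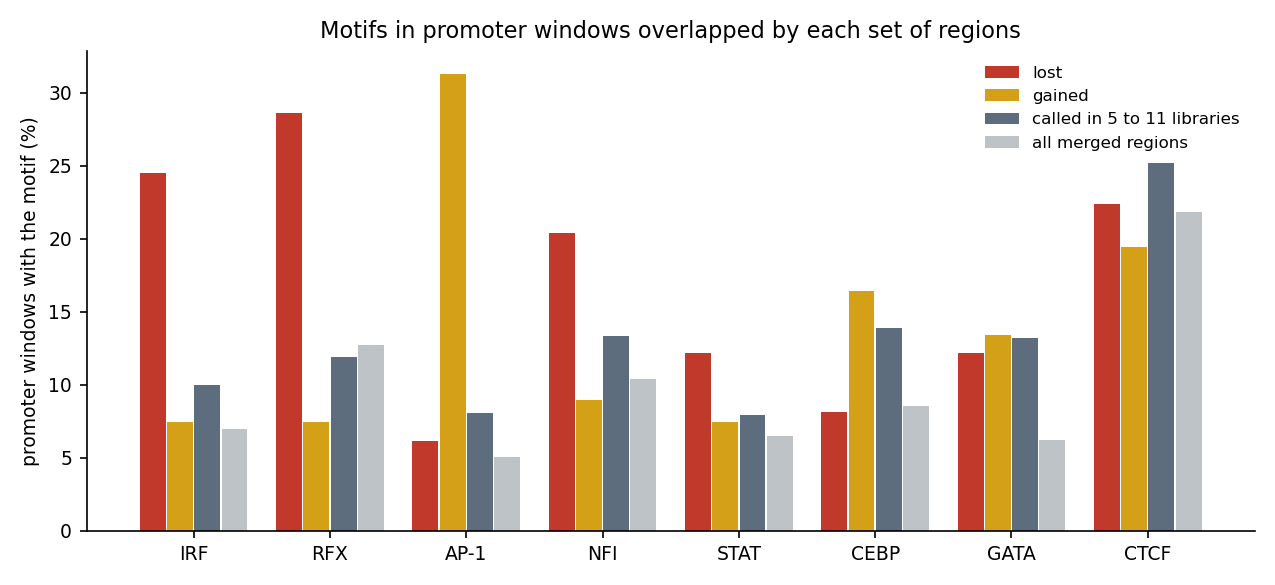
Share of promoter windows (%, vertical axis) with each of 8 of the searched motifs (horizontal axis), for windows overlapped by lost regions (49 windows), gained regions (67), regions called in 5 to 11 libraries (783) and all merged regions (13213). Bars of lost regions are the highest of the 4 for RFX (28.6%), IRF (24.5%), NFI (20.4%) and STAT (12.2%), and those of gained regions for AP-1 (31.3%), CEBP (16.4%) and GATA (13.4%). Among motifs not drawn, lost regions were also highest for RUNX (10.2%) and PU.1 (8.16%), and gained regions for GRE (8.96%), KLF (7.46%) and EGR (4.48%).

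At the Pifo promoter (the gene of a protein at the base of the cilium), the lost region chr3:106000976-106001732 was called in 1 of 8 IL-1β libraries and 8 of 8 baseline libraries. Reads at its highest summit, scaled so that every library has the same median over shared regions, were 5.72, 9.35 and 15.9 in the 3 IL-1β libraries that listed any peak there, against a lowest, median and highest value of 13.3, 16.8 and 21.7 in the 8 baseline libraries. The one IL-1β library still called, diabetic replicate 1, lay within the baseline range. The region at Lrif1 (a nuclear receptor-interacting protein of heterochromatin), chr3:106684757-106685184, was called in 0 IL-1β and 7 baseline libraries, with 7.48, 8.49 and 9.0 reads in 3 IL-1β libraries and 12.2, 15 and 29.1 (lowest, median, highest) in 7 baseline libraries. Listed values of the groups did not overlap there. The Cfap46 region, chr7:139683752-139684137, kept 11, 11.4 and 12.3 reads (lowest, median, highest) in 5 IL-1β libraries, against 13.1, 15.3 and 17.4 in 8 baseline libraries, without overlap. At Bbs1, chr19:4906455-4906766, the values were 6.20, 7.36 and 11.2 reads in 3 IL-1β libraries and 8.35, 14.1 and 15.2 in 7 baseline libraries, and they overlapped. Another BBSome gene, Bbs4, held a lost region inside its body, chr9:59329820-59330443, which was listed in no IL-1β library and in 8 baseline libraries with 7.48, 14.5 and 16.1 reads.

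Lost calls left either a weaker peak or no peak in the deposited list, and the split varied with the length of each list. Of 6696 pairs of a lost region and an IL-1β library, 919 (13.7%) kept the peak, 2766 (41.3%) had a weaker peak ranked below the kept ones, and 3011 (45%) had no peak in the deposited list. At baseline the same pairs gave 5465 kept peaks (81.6%), 908 weaker peaks (13.6%) and 323 without a peak (4.82%). In the longest IL-1β lists, control replicate 1 (67779 peaks) and diabetic replicate 2 (64700), 80 and 137 lost regions had no peak. In the shortest, diabetic replicate 3 (47255) and control replicate 2 (37543), 528 and 744 had none. The pooled shares thus mix lists of unlike length. Just inside the limit, the 561 regions with a difference of 5 had medians of 11.9 reads in IL-1β and 15.9 in baseline libraries where listed, and just outside, the 1301 with a difference of 4 had 12.3 and 15.2 reads in IL-1β and baseline libraries. The lost regions were among the weaker kept peaks. Their median scaled reads, where listed, were 10.6 to 14.9 in IL-1β and 15 to 17.4 in baseline libraries, against 19.6 to 28.4 in IL-1β and 19.0 to 23.3 in baseline libraries over all listed regions. Their median rank in a library, where listed, was 39974 to 43927 in 7 IL-1β libraries and 29031 to 32055 in the 8 baseline libraries, with rank 1 the strongest and rank 37543 the last kept. Control IL-1β replicate 2 had the shortest list, which set the kept number, so it could hold no weaker peak, and its median rank was 30702 over 93 lost regions. In the whole deposited lists 180 of the 837 regions (21.5%) kept a difference of at least 5 libraries. The same rule on whole lists gave 2545 lost and 921 gained regions, so which direction held more regions depended on list length. With only the 20000 strongest peaks of each library 14 of the 837 overlapped a region that met the rule.

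**Figure D2:**
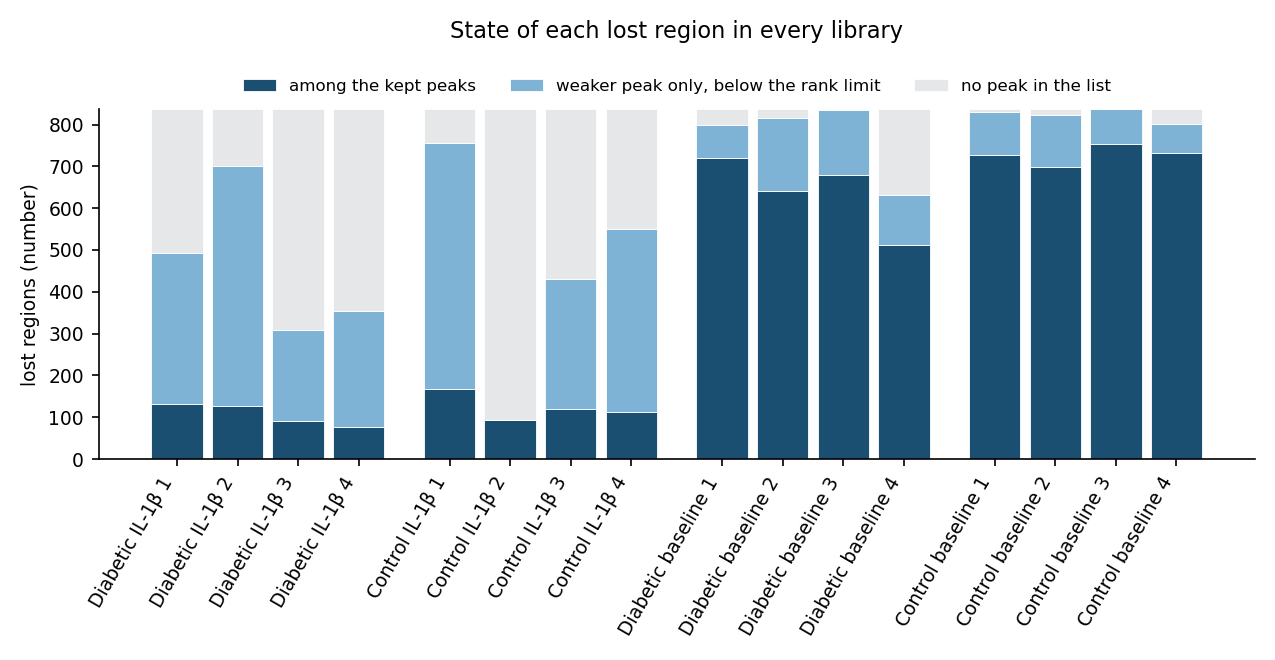
Number of the 837 lost regions (vertical axis) that were among the kept peaks, had only a weaker peak or had no peak, in each of the 16 libraries (horizontal axis, IL-1β libraries left of baseline libraries). Kept peaks number 77 to 168 in the IL-1β libraries and 511 to 754 in the baseline libraries.

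Library quality differed. Background, the smallest expected read number per window in a library's peak calling, was 1.05 to 1.5 reads in IL-1β and 0.856 to 1.71 in baseline libraries, and distinct peaks numbered 37543 to 67779 in IL-1β and 49282 to 72525 in baseline libraries. The −log10 p at the last kept peak was 3.55 to 10.5 in IL-1β and 7.32 to 11.8 in baseline libraries. Diabetic baseline replicate 4 was the shallowest, with a background of 0.856 reads and 511 lost regions called, against 640 to 754 in the other baseline libraries. How far list length and depth enter the loss of calls was not tested.

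The 11 regions called in 8 of 8 baseline libraries and 0 of 8 IL-1β libraries lay near Smim20, Gpcpd1, Parp8, Sik2, Trappc9, Gpc6, Fndc3b, Ccnd1, Itpr1, Akap13 and P2ry14. Their reads were lower after IL-1β in every library that listed a peak than in any baseline library. The margin was narrow at Akap13, where the highest IL-1β value was 15.2 and the lowest baseline value 15.7. The region nearest Smim20 (a mitochondrial inner membrane protein of cytochrome oxidase assembly), chr5:53401058-53401444, lay 122518 bp from that gene. It held 12.2 and 13.8 reads in the 2 IL-1β libraries with a peak, both diabetic, against 20.4, 33.8 and 39.3 reads (lowest, median, highest) in the baseline libraries. The fold over local background, as the authors' peak caller wrote it, was 3.68 and 3.87 in those IL-1β libraries and 5.15 to 9.75 at baseline.

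The region chr2:132600126-132600509, 21878 bp from Gpcpd1 (a glycerophosphocholine phosphodiesterase), had the most baseline reads of the 11. It kept a weaker peak in 6 IL-1β libraries, with 19.0, 22.5 and 26.2 reads (lowest, median, highest), against 40.7, 49.8 and 58.9 reads in the 8 baseline libraries. All 6 listed values lay below every baseline value. Inside Sik2 (salt-inducible kinase 2, which holds CRTC coactivators in the cytoplasm), chr9:50905304-50905811, 5979 bp from a gene end, had 8.86 and 11.9 reads in 2 IL-1β libraries, 1 of each phenotype, against 17.4, 25.6 and 33.2 at baseline. Inside Trappc9 (a subunit of a vesicle tethering complex), chr15:72916754-72917211 had 12.2 reads in the 1 IL-1β library with a peak, against 20.4, 31.3 and 45.9 at baseline. The region nearest Ccnd1 (cyclin D1, which drives entry into the cell cycle), chr7:145018202-145018637, lay 78371 bp away and had 9.0, 9.35 and 10.3 reads in 3 IL-1β libraries, against 13.1, 16.8 and 23.0 at baseline.

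Of the other regions in this group, chr13:117043567-117044009 lay 17548 bp from Parp8 (a member of the ADP-ribosyltransferase family), and chr3:59132004-59132342 lay in P2ry14 (a receptor for UDP-sugars). The Parp8 region had 14.7 and 14.9 reads in 2 IL-1β libraries and 19.2 to 30.6 at baseline, and the P2ry14 region 14.7 to 17 in 3 IL-1β libraries and 21.2 to 29.6 at baseline. In Itpr1 (an inositol trisphosphate receptor that releases calcium), chr6:108371316-108371912 had 8.41 to 11 reads in 3 IL-1β libraries and 13.1 to 20 at baseline. Gpc6 (a cell surface proteoglycan), Fndc3b and Akap13 (a scaffold of protein kinase A) each listed a weaker peak in 5 IL-1β libraries. The next in order, chr16:5445743-5446157, 189787 bp from Eef2kmt, was called in 0 IL-1β and 7 baseline libraries. In the libraries without a peak there is no read value, so the IL-1β medians given here are of the stronger libraries only.

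**Figure D3:**
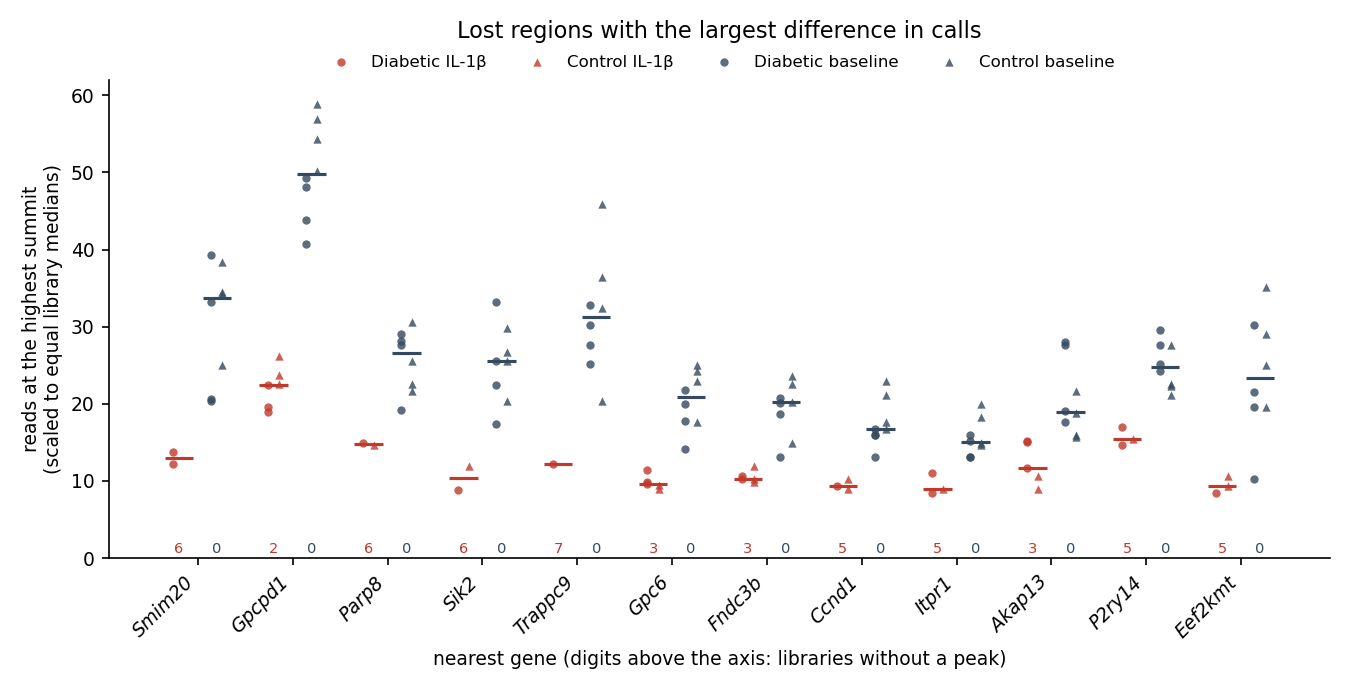
Scaled reads at the highest summit (vertical axis) of the 12 lost regions with the largest difference in calls (horizontal axis, by nearest gene), with IL-1β libraries left of baseline libraries, circles for diabetic and triangles for control. Lines are medians of listed values and digits count libraries without a peak, and the listed IL-1β values of the first 11 lie below all their baseline values.

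All 8 baseline libraries and at least 1 IL-1β library listed a peak at 539 of the 837 regions, and at 64 of these (11.9%) the listed IL-1β values lay below every baseline value, against 0.888% of the 31741 merged regions listed in that way. The rule used this contrast, so the shares are a description. Another 280 lost regions were listed in fewer than 8 baseline libraries. At 64 of these (22.9%) the listed IL-1β values lay below all listed baseline values, against 4.09% of the 28451 merged regions listed in that way. With fewer listed values such a separation is easier to reach. At the last 18 (2.15%) no IL-1β library listed any peak. Such absence was not particular to lost regions, since 2585 of all 64328 merged regions had no listed IL-1β peak. Among regions called in 5 to 11 libraries it held for 18, and the rule counts every such region as lost. Those 18 had lost 5 to 7 kept calls. They lay near or in Lmo1, Amotl2, Nrip1, Gda, Dock2, Setd7, Bbs4, Fpr1, Trib1, Mfge8, Map3k1, Smim13, Rassf2, Dgat2, Serf2, Sema4b, Cd44 and Fbxo30. In Map3k1 (a kinase upstream of JNK), chr13:111805220-111805525 was called in 5 baseline libraries, 4 of them control, and listed in all 8, with 33.6, 39.2 and 48.7 reads (lowest, median, highest). Its local background was high, with a median of 12.6 expected reads at baseline, so that this many reads amounted to a fold of 2.71 to 4.36. In Rassf2 (a Ras-association tumour suppressor), chr2:132022665-132023003 had 18.9, 31.0 and 43.3 reads over a median local background of 9.40. In Setd7 (a lysine methyltransferase that can monomethylate histone H3), chr3:51520680-51521019 had 18.9, 26.5 and 35.1 reads over 5.74. In Dgat2 (an enzyme of triglyceride synthesis), chr7:99158938-99159405 had 17.4, 22.1 and 30.2 reads over 4.77. The region chr15:59660123-59660466, 3024 bp from Trib1 (a pseudokinase that controls C/EBPα degradation), was listed in 7 baseline libraries with 15, 17.6 and 22.6 reads, and chr17:17873539-17873858, 2613 bp from Fpr1 (the formyl peptide receptor of myeloid cells), in 7 with 16.5, 25.5 and 31.1.

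By role, lost regions were about as frequent near genes of the IL-1 pathway as among all regions. Among 23 genes of NF-κB and IL-1 signalling, 161 merged regions lay within 10 kb of a gene body, of which 2 (1.24%) were lost and 8 (4.97%) gained, against 1.30% lost and 1.93% gained over all regions. Both lost regions lay in Il1rap (the co-receptor shared by IL-1, IL-33 and IL-36). The first, chr16:26691431-26691698, was called in 0 IL-1β and 6 baseline libraries. It had 13.9 reads in 1 control IL-1β library and 19.6, 30.6 and 37.8 (lowest, median, highest) in 7 baseline libraries, with no peak in diabetic baseline replicate 1. The second, chr16:26680403-26680832, was called in 2 IL-1β and 7 baseline libraries with overlapping values, 8.41, 11.2 and 14.9 reads in 4 IL-1β libraries against 9.35, 16.8 and 22.6 in 8 baseline libraries. Il18r1 (the receptor for IL-18, beside Il1rl1) held 2 lost regions within 10 kb. The one named by the rule, chr1:40473674-40474062, was called in 2 IL-1β and 7 baseline libraries, with 12.4, 15.2 and 18 reads in 5 IL-1β libraries and 10.8, 22.1 and 30.8 at baseline.

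Among growth factor and cytokine receptors, 2 of 145 regions (1.38%) were lost and 6 (4.14%) gained. Both lost regions lay in Flt3 (the receptor tyrosine kinase of multipotent and lymphoid-primed progenitors). The first, chr5:147392657-147393175, was called in 3 IL-1β and 8 baseline libraries, with 14.0, 16.5 and 30.7 reads in 7 IL-1β libraries and 20, 23.2 and 27.1 in 8 baseline libraries. Diabetic IL-1β replicate 3 held the highest of all these values, so the groups overlapped. The second, chr5:147331607-147331909, lay 866 bp from a gene end and was called in 2 IL-1β and 7 baseline libraries. Its reads also overlapped, at 9.81 to 15.2 in 4 IL-1β libraries and 9.19 to 17.8 at baseline.

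Stem and progenitor factors had 3 lost regions of 193 (1.55%) and 5 gained (2.59%). In Runx1 (a master regulator of haematopoiesis), chr16:92640984-92641430 was called in 3 IL-1β and 8 baseline libraries, with 8.18, 13.9 and 16.8 reads in 7 IL-1β libraries, all below the 17.4, 21.7 and 27.2 reads of the 8 baseline libraries. In Meis1 (a homeobox factor that maintains stem cells), chr11:18969837-18970360 was called in 2 IL-1β and 8 baseline libraries, with 7.43, 10.7 and 13.1 reads in 7 IL-1β libraries and 11.7, 15.8 and 29.1 at baseline, and the ranges overlapped. At Lmo2 (a bridging protein of the haematopoietic complex with TAL1 and GATA factors), chr2:103955016-103955339, 2564 bp from the gene, was called in 1 IL-1β and 7 baseline libraries. The surface and niche genes of stem cells, with 105 regions, had 0 lost and 1 gained. The 18 regions above include one 31607 bp from Cd44, which is outside the 10 kb used for the lists.

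Immediate early and AP-1 genes had 3 lost regions of 150 (2.00%) against 8 gained (5.33%). In Bach1 (a heme-regulated repressor of the CNC family), chr16:87722123-87722680 was called in 0 IL-1β and 7 baseline libraries, with 15.5 reads in each of 2 control IL-1β libraries and 15.1, 18.1 and 25.1 in 7 baseline libraries. The region chr13:5873769-5874020, 3376 bp from Klf6 (a zinc-finger factor), was called in 0 IL-1β and 6 baseline libraries, and in Fosl2 (the AP-1 subunit FRA2) chr5:32138446-32138804 was called in 1 IL-1β and 7 baseline libraries. Reads at Fosl2 were as high as 48.8 in IL-1β and 58.4 in baseline libraries, over a median local background of 21.6 at baseline. MAP kinase genes had 2 lost regions of 141 (1.42%), those in Map3k1 and Rassf2, and 5 gained (3.55%). The glucocorticoid and circadian list had 2 of 116 (1.72%), both at Nr3c1 (the glucocorticoid receptor). The one 6625 bp outside Nr3c1 was called in 2 IL-1β and 8 baseline libraries, with 9.30, 11.9 and 13.9 reads in 5 IL-1β libraries and 13.1, 17.3 and 23.6 at baseline.

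Lists of lineage genes held 0 to 3 lost regions each. Monocyte and dendritic genes had 3 lost of 104 (2.88%), the 2 in Flt3 and 1 at 4914 bp from Cx3cr1 (the fractalkine receptor). Lymphoid genes had 2 of 101 (1.98%), again those in Flt3. Mast cell and basophil genes had 2 of 75 (2.67%), in Srgn (serglycin) and beside Il1rl1. Erythroid and megakaryocyte genes had 1 of 91 (1.10%), in Vwf (von Willebrand factor), chr6:125678510-125678836, called in 1 IL-1β and 7 baseline libraries. Granulocyte genes had 0 of 93. Chromatin genes had 2 of 147 (1.36%), in Setd7 and in Tet3 (a DNA demethylase), where chr6:83412939-83413372 was called in 0 IL-1β and 7 baseline libraries with 11.2 and 13.9 reads in 2 diabetic IL-1β libraries and 14.5, 18.5 and 24.0 at baseline. Lipid and glucose genes had 1 of 129 (0.775%), in Dgat2. Shares of 0% to 2.88% per list stand beside 1.30% of all regions, and several lists share Flt3.

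Shorter lists of defining markers, used to check the cell types, held no lost region. The 7 lists, of mature neutrophils, B cells, T and NK cells, macrophages, erythroid cells, stroma with endothelium, and stem cells, had 0 lost of 54, 21, 14, 13, 25, 23 and 21 regions within 10 kb, and gained regions numbered 2 for neutrophils, 1 for B cells and 0 for the rest. With 13 to 54 regions a list and 1.30% of all regions lost, nothing is read from these counts. Mean log2 reads over the shared regions of the neutrophil list ran from 5.45 to 5.91 in IL-1β and from 4.91 to 5.81 in baseline libraries, and those of the erythroid list from 4.96 to 5.57 in IL-1β and from 4.80 to 5.80 in baseline libraries. Their part in the lost regions was not tested. In a mixed fraction, fewer cells of a type and less accessible chromatin per cell cannot be told apart.

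Clustering of lost regions at single genes was rare. Of the 837 regions, 724 had a protein-coding gene body within 50 kb, and 677 distinct genes were nearest to them, 633 of them to 1 region. Mbnl2 (a muscleblind splicing regulator) was the only gene with at least 3 lost regions within 10 kb, with 3 of 22 and 0 gained. Of these, chr14:120341875-120342327 was called in 2 IL-1β and 8 baseline libraries, with 7.36, 10.1 and 14.7 reads in 7 IL-1β libraries and 14.5, 28.6 and 34.3 in 8 baseline libraries. The ranges met only where diabetic IL-1β replicate 3 (14.7) passed diabetic baseline replicate 4 (14.5). The second, chr14:120278246-120278633, 2594 bp from a gene end, had 18.8 and 27.6 reads in 2 IL-1β libraries and 33.4, 38.8 and 44.7 at baseline, and the third, chr14:120327058-120327612, overlapped between the groups at 14.5 to 26.5 reads in 5 IL-1β and 19.2 to 30.6 in 8 baseline libraries. At least 2 lost regions lay within 10 kb of 41 genes. Cd38, Il16, Itga5, Arhgap15 and Ssbp2 were among those with 0 gained regions, while Arhgap26 and Lrrfip1 had 2 gained regions each and some others had 1. Another lost region lay within 50 kb of 86 lost regions (10.3%), 8.47% of gained and 7.84% of all other regions. A gained region lay within 50 kb of 11.5% of lost, 21.3% of gained and 14.5% of other regions.

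Lost regions were mainly distal. Within 1 kb of either end of a protein-coding gene lay 89 of them (10.6%), against 9.52% of gained and 21.1% of all merged regions. Regions called in 5 to 11 libraries, which have the breadth that the rule allows, gave 10.6% as well. Gene bodies were overlapped by 476 lost regions (56.9%), against 57.5% of gained, 57.3% of like-breadth and 62.4% of all regions, and 113 (13.5%) lay over 50 kb from any gene body, against 9.85% of gained, 10.5% of like-breadth and 9.52% of all regions. The median distance to a gene end was 19321 bp for lost, 14322 bp for gained and 10859 bp for all regions. The median width was 375 bp (217 to 966), against 376 bp at like breadth. A region called in all 16 libraries lay within 5 kb of 17.8% of lost, 27.6% of gained and 18.6% of like-breadth regions. Per 1000 merged regions, lost ones numbered 13 over the genome, from 7.44 on chromosome 17 to 18 on chromosome 12, with 0 of 32 regions on chromosome Y.

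**Figure D4:**
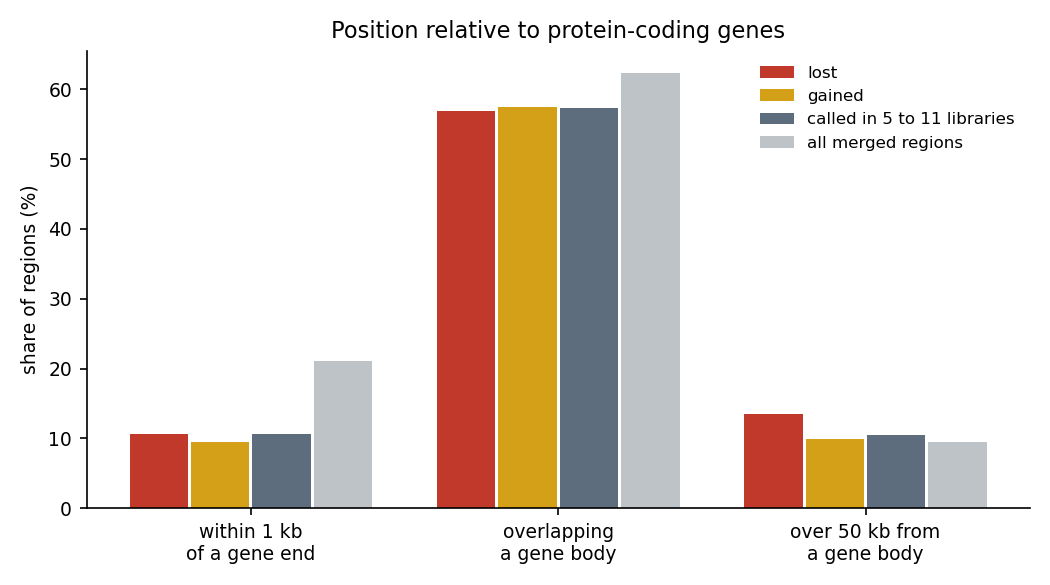
Share of regions (%, vertical axis) in 3 positions relative to protein-coding genes (horizontal axis) for lost, gained, like-breadth and all merged regions. Lost and like-breadth regions have the same share near gene ends, 10.6%, and lost regions stand highest beyond 50 kb, at 13.5%.

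Loss of calls was then followed in each divided marrow sample. A lost region was called at baseline and not after IL-1β in 445 to 596 of 837 cases in the 4 diabetic samples, and in 564 to 640 in the 4 control samples. The opposite pattern occurred in 7 to 11 regions per diabetic and 3 to 5 per control sample, and 787 regions (94.0%) had it in no sample. By number of samples that lost the call, 516 regions lost it in 5, 242 in 6, 68 in 7 and 11 in all 8. The rule itself requires a loss in at least 5 samples and allows the opposite in at most 1, so these counts largely restate it. Where both portions listed a peak, the median log2 ratio of IL-1β over baseline reads of the lost regions was -0.34, -0.45, -0.41 and -0.52 in diabetic samples 1 to 4 and -0.49, -0.24, -0.48 and -0.51 in control samples 1 to 4, against -0.08 to 0.09 over all regions. The value of -0.24 rests on 93 regions in control sample 2. These ratios share the contrast of the rule and describe its members.

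Both phenotypes lost calls at every region, which follows from the rule, since 4 libraries a phenotype can give at most 4 of the 5 lost calls. At least 2 calls were lost in each phenotype at 722 regions (86.3%), at least 3 in each at 163 (19.5%) and all 4 in each at 11 (1.31%). The first share is nearly set by the rule as well, since only a split of 4 and 1 calls can fall short of it. Such a split held at 80 regions with 1 call lost in diabetic and at 35 with 1 lost in control samples. The shares are therefore no measure of consistency between the phenotypes. The diabetic loss was larger at 289 regions (34.5%) and the control loss at 448 (53.5%), with 100 equal. Of all possible calls, IL-1β libraries held 12.8% in diabetic and 14.7% in control samples, and baseline libraries 76.2% in diabetic and 87.0% in control samples. Diabetic sample 4, whose baseline library was the shallowest, lost 445 calls, and diabetic samples 1 and 3 lost 596 each, more than control sample 1 with 564. Over all merged regions, however, diabetic sample 4 lost the largest share of its baseline calls, 24.6%, and control sample 1 the smallest, 15.6%. The part of depth in the difference between phenotypes was not tested.

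**Figure D5:**
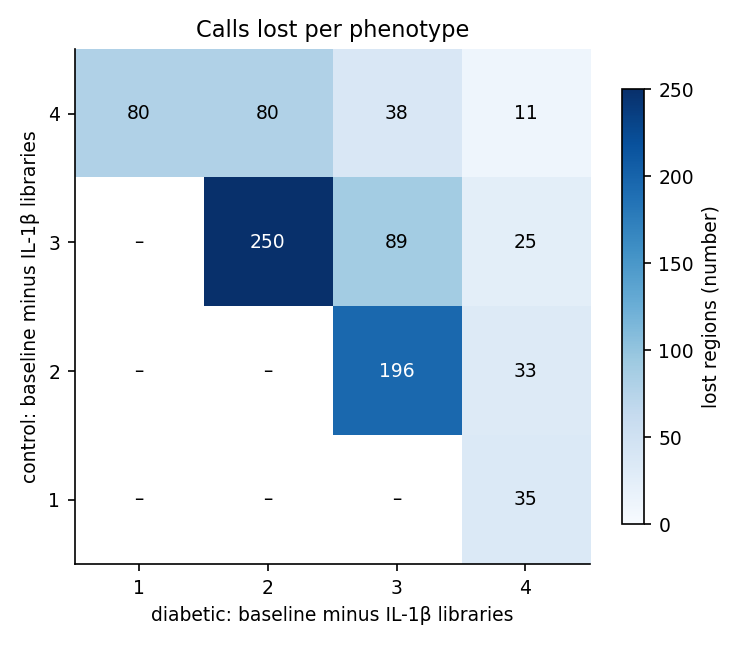
Number of lost regions (colour and digits) by the number of calls lost in diabetic libraries (horizontal axis) and in control libraries (vertical axis), each as baseline minus IL-1β libraries. The cells with 2 lost in diabetic and 3 in control (250 regions) and with 3 in diabetic and 2 in control (196) hold the most.

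The regions with the most unequal loss are given as a description, since they were picked for it. With the larger loss in diabetic libraries, chr13:113542440-113542924, 49255 bp from Snx18 (a sorting nexin), lost 4 calls in diabetic and 1 in control samples. Its reads were 9.35, 11.4 and 11.7 in 3 diabetic IL-1β libraries against 13.1 to 25.2 in diabetic baseline libraries, and 12.4 to 15.5 in 3 control IL-1β libraries against 19.6 to 25.1 in control baseline libraries. Listed reads were below every value of the same phenotype's baseline in both phenotypes, and the 3 control portions were still among the kept peaks. The region chr14:21181109-21181412 in Adk (adenosine kinase) had 8.41 to 11.4 reads in 3 diabetic IL-1β libraries against 13.1 to 20 at diabetic baseline, and 11.4 to 17.2 in 3 control IL-1β libraries against 18.3 to 24.5 at control baseline. With the larger loss in control, chr8:84220082-84220573 in Zswim4 lost 1 call in diabetic and 4 in control samples. It had 15.9 to 19.1 reads in 4 diabetic IL-1β libraries against 25.2 to 44.3 at diabetic baseline, and 14.3 to 16.5 in 3 control IL-1β libraries against 28.4 to 42.2 at control baseline. The region chr6:71418871-71419309 in Rmnd5a (an E3 ligase subunit) had 12.7 to 17.2 reads in 3 diabetic IL-1β libraries against 13.6 to 23.3 at diabetic baseline, and 8.18 and 8.26 in 2 control IL-1β libraries against 19.6 to 23.4 at control baseline. Its ranges overlapped in diabetic and not in control samples, a difference that was not tested.

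Diabetic and control libraries were also compared at baseline. The rule used the baseline calls of both phenotypes, and 547 lost regions entered the fit because all 8 baseline libraries, the side on which they are high, listed them, so their values are a description and the lack of calls says nothing about diabetes at the lost regions. In a limma fit on log2 scaled reads over the 31768 regions listed in all 8 baseline libraries, 0 regions (0%) passed a Benjamini-Hochberg adjusted p of 0.05, and 0 of the 547 lost regions in the fit. At an unadjusted p below 0.05 there were 2332 regions (7.34%) and 36 of the 547 (6.58%). The log2 difference, diabetic minus control, had a median of 0.04 over the 547 regions, with 90% of them between -0.43 and 0.50, against a median of 0.08 over all regions. Scaled by background reads instead, the medians were -0.18 and -0.15. Atp10a, Hlx and Irs2 serve as examples from the regions with the 5 smallest unadjusted p values, chosen after their values were seen. The region chr1:184590710-184591200, 135943 bp from Hlx (a homeobox factor of haematopoietic cells), had 12.1, 12.2, 12.8 and 13.1 reads in diabetic and 17.7, 18.3, 19.6 and 20.9 in control baseline libraries (log2 difference -0.60 ± 0.20 SE, limma adjusted p = 0.609). The region chr8:10830891-10831167, 153514 bp from Irs2 (insulin receptor substrate 2), had 18.7, 18.9, 20.1 and 20.8 reads in diabetic and 9.19, 12.9, 14.1 and 14.7 in control libraries (0.65 ± 0.21 SE, limma adjusted p = 0.609). All 4 values of one phenotype lay on one side of the other in both cases, and neither passed the correction. Another lost region closer to Irs2, chr8:10910499-10911464 at 73217 bp, had a small difference in the other direction, with overlap. Its baseline means were 15.9 reads in diabetic and 17.5 in control libraries (-0.14 ± 0.21 SE, limma adjusted p = 0.77). In Atp10a (a phospholipid flippase), chr7:58711824-58712198 had 13.1, 18.4, 22.4 and 30.5 reads in diabetic and 8.64, 9.19, 12.8 and 14.2 in control libraries (0.88 ± 0.27 SE, limma adjusted p = 0.609), with overlap.

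The difference between the phenotypes in the response to IL-1β was fitted in the same way over 24946 regions listed in all 16 libraries. None passed (0%, limma with Benjamini-Hochberg adjustment), with 416 (1.67%) at an unadjusted p below 0.05. Only 7 lost regions entered, since the others lack a peak in at least 1 library, and 0 of them had an unadjusted p below 0.05. These 7 are too few and too selected to speak for the lost regions. A looser limma fit took 40392 regions listed in at least 12 of 16 libraries, 465 of them lost, and 0 passed the adjustment. At an unadjusted p below 0.05 there were 938 of the 40392 regions and 19 of the 465, a larger share of the lost regions than of all. That difference in shares was not tested. Medians of the difference of responses were 0.03 over the 465 and -0.03 over all. The 465 were also selected by their listing, so these values are a description. Among the 7, Scn4a came nearest, at chr11:106366408-106366702, 849 bp from the gene of a muscle sodium channel. It had 11, 11.4, 11.7 and 13.1 reads in diabetic IL-1β against 8.72, 14.0, 16.1 and 17.6 in diabetic baseline libraries, and 8.18, 8.26, 9.48 and 10.7 in control IL-1β against 13.4, 14.9, 17.3 and 18.6 in control baseline libraries. The difference of responses was 0.59 ± 0.30 on the log2 scale (SE, limma adjusted p = 1). In simulated data with a log2 change of 1, the fit of responses over the 24946 regions recovered 27 of 200 changed regions, and the baseline fit over the 31768 regions 88 of 200. The simulation used the mean reads of all fitted regions and a fixed spread. The lost regions held fewer reads, so these recoveries do not describe them.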

How the data were processed

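Each sample has 1 deposited peak list on build mm10. MACS2 2.1.1 is among the tools in the submitters' processing notes, which also name Bowtie2 2.2.6, DiffBind 2.4.8, edgeR, FastQC 0.11.3 and Trim Galore 1.8, without roles. A Tn5 shift and removal of duplicates are steps not given in the sources used here. Per the labels' protocols, fragments over 1200 bp were removed and 50-bp single reads sequenced. The deposited lists hold a score, a fold (a ratio over local background), and −log10 p and −log10 q values at each summit. The score was not used.

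Peaks were ranked by deposited −log10 p. Whole reads and local background at a summit were recovered from the deposited fold and −log10 p under the peak caller's Poisson formula, with −log10 p met within 0.001 for 99.999% to 100% of summits. Simulated summits (4998) were returned in 100% of cases. Reads were scaled to equal medians over regions listed in all libraries and set on a log2 scale. limma 3.58.1 (R 4.3.3, trended variance, 4 libraries per group) tested the phenotype contrasts, and other work used Python 3.11.15, numpy 2.4.6, pandas 2.3.3 and scipy 1.17.1. The deposited values give no total depth, so background and summit reads stand in for it.

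Gene bodies were those of a RefSeq table of GRCm38.p6 (21887 protein-coding genes, no strand or exons), so exon and intron were not told apart, and promoter windows (32851) cover 79.9% of those genes. The planned motif counts in all regions were replaced by promoter windows, since no genome was used. Named regions are the 12 with the largest difference in calls (ties by mean −log10 p, 1 per gene), up to 3 per gene list within 10 kb, genes with at least 3 lost regions, the 3 most unequal per phenotype, and members past a limma threshold, of which there were 0. Members, gene lists and rules were chosen with earlier results of these data known. The printed windows, the 18 regions without an IL-1β peak and the RFX letters were chosen after values were seen.

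The series design says each sample was split, so equal numbers pair portions within a phenotype. Deviations from group means correlated by 0.40, 0.19, -0.04 and 0.33 in diabetic and 0.42, 0.36, 0.01 and 0.07 in control samples. Alternatives were list length, q, ranking by fold, overlap, the difference required, libraries and samples left out, scaling, filters and the pairing, and, chosen after seeing the data, regions of like breadth.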

Additional observations from a re-analysis of the deposited data

Results flagged for a closer look

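Among 98 checks of a group of 4 libraries for a value far from the other 3, made on the number of lost regions called or without a peak, on their median reads, and on reads of the named regions, 5 stood out. Chance gives about 1 in 20. They are the low value of 19.2 reads in diabetic baseline replicate 3 near Parp8, and the high values of 22.4 in diabetic baseline replicate 2 in Ttc39c, 39.3 and 16.9 in control baseline replicate 3 near Klf6 and in Vwf, and 69.1 in control baseline replicate 1 in Srgn.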

How the results depend on the processing

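The number and identity of lost regions depend on the rank limit. Whole lists gave 2545 lost and 921 gained regions, with 180 of the 837 found again. The 20000 strongest peaks gave 500 and 645, with 14 found again, and lists filtered at a −log10 q of 5 gave 2408 and 554, with 606 found again. With all 16 libraries, lost exceeded gained regions in both settings with lists of unequal length and in none of those with equal length. Ranking by fold gave 834 lost regions but only 382 of the 837, and an overlap of at least 100 bp gave 838. A difference of at least 4 gave 2138 and of at least 6 gave 276. Leaving out 1 library gave 351 to 1216 lost regions, 351 to 508 without a baseline library and 1043 to 1216 without an IL-1β library (779 to 887 gained), as fewer libraries make the difference harder or easier to reach. Leaving out both portions of a marrow sample gave 464 to 614, of which 438 to 558 overlapped the 837. The count was 496 without diabetic sample 1 and 492 without sample 3, and 521, 475, 464 and 480 without control samples 1 to 4. Within 5 kb of a gene end lay 24.6% of lost regions, and within 1 kb 7.62% of those from whole lists.

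Both limma contrasts gave 0 calls under every alternative run: background scaling, cyclic loess, looser filters and each library left out. Background scaling moved the median log2 difference of all regions at baseline to -0.15 and that of the lost regions to -0.18. With the marrow sample as a replicate block, which uses the pairing, the difference of responses gave 0 calls, 849 regions with an unadjusted p below 0.05, and adjusted p values of 0.986 and above. Summits of lost regions held few reads, which limits the precision at a single region.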
